A study of Mus musculus with 6 samples.

Results

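The cap mesenchyme is the pool of nephron progenitors that surrounds each ureteric tip of the embryonic kidney, and 9 genes that regulate or mark it are described here, chosen by name: Cited1, Meox1, Eya1, Osr1, Sall1, Pax2, Crym, Tmem100 and Traf1. All 9 were found among the 23219 gene symbols measured, and all 9 passed the filter on low values that 13977 symbols passed. The RNA came from whole kidneys of mouse embryos on day 17 of gestation. The 3 mutant kidneys, numbered 6, 8 and 9, carried Six2Cre and were Mta2flx/flx, and the 3 control kidneys, numbered 5, 7 and 11, were Mta2flx/flx without the Cre. Both groups therefore share the floxed Mta2 alleles, and Mta2 loss and the Cre transgene cannot be told apart as sources of a difference. Mta2 encodes a subunit of NuRD, a complex that remodels nucleosomes and removes acetyl groups from histones, and Six2Cre acts in nephron progenitors and their descendants. Separate embryos or litters are not stated in the labels, so the p-values cover only the spread among these 6 samples, and that spread may be technical.

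Nephron progenitors either renew themselves or commit to form a nephron. Cells that hold both Six2 and Cited1 are the least committed, and Cited1 is lost before Six2 as cells prepare to differentiate. Wnt9b from the ureteric bud then drives them to form pretubular aggregates that express Wnt4, Fgf8, Pax8 and Lhx1. Eya1, Osr1, Sall1 and Pax2 are needed in the mouse to form or keep this pool.

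Summed coverage was 794 to 1235 megabases per library. Levels are given as BPM, the covered bases of a gene per 1000000 covered bases of its library. They are not divided by gene length, and how many reads lie behind each is not known. Mta2 itself stood at 139.6, 189 and 146 BPM in mutants 6, 8 and 9, against 219.7, 198 and 210.5 BPM in controls 5, 7 and 11, so it was lower in each mutant kidney. Its log2 fold change was -0.41 (SE 0.21), with an adjusted p of 0.887 in limma. By exact permutation of the 6 kidneys, two-sided, p was 0.1, which is the lowest value this design can reach. Some libraries stood apart. Mutant 6 did so on the first principal component, control 5 on the second and control 11 on the third. Control 11 had 2.30% of its bases on Lars2, against 0.0739% to 0.482% in the other libraries, and mutant 9 carried muscle transcripts. Kidney markers were present in every library. Those of tubule and podocyte, with Aqp2 of the collecting duct, summed to 2933 to 4236 BPM in mutant kidneys and 5005 to 5913 BPM in control kidneys, without overlap. Their part in the values of the 9 genes was not tested.

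Cited1 had the smallest p of the 9 genes and was lower in each mutant kidney, while Eya1 was higher in each, so regulators of the same progenitor pool lay on both sides of 0. Meox1 and Traf1 were also lower in each mutant kidney, and Sall1 stood at nearly the same level in both groups. Of the 9 genes, 0 passed an adjusted p of 0.05 in limma, as did 0.0% of the 13977 genes tested. An unadjusted limma p below 0.05 was found for 3 of the 9 (Cited1, Meox1 and Eya1), against 5.6% of all genes. Of all genes 2.7% were lower and 2.9% higher by that measure, and of the 9, Cited1 and Meox1 were lower and Eya1 higher. The groups did not overlap for 4 of the 9, of which 3 were lower and 1 higher in mutant kidneys, against 11.2% of all genes (5.12% lower and 6.1% higher). The genes were chosen with earlier results of these data known, so these counts are a description. The log2 fold changes of the 9 ran from -1.48 to 0.90, with 3 above 0 and 6 below, beside 7354 above and 6623 below of all 13977 genes tested. Their median was -0.80, the value of Traf1, beside 0.02 over all genes tested. In whole-kidney RNA, a difference in the number of progenitor cells and one in RNA per progenitor cannot be told apart. This holds for the genes that were lower and for those that were higher.

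**Figure D1:**
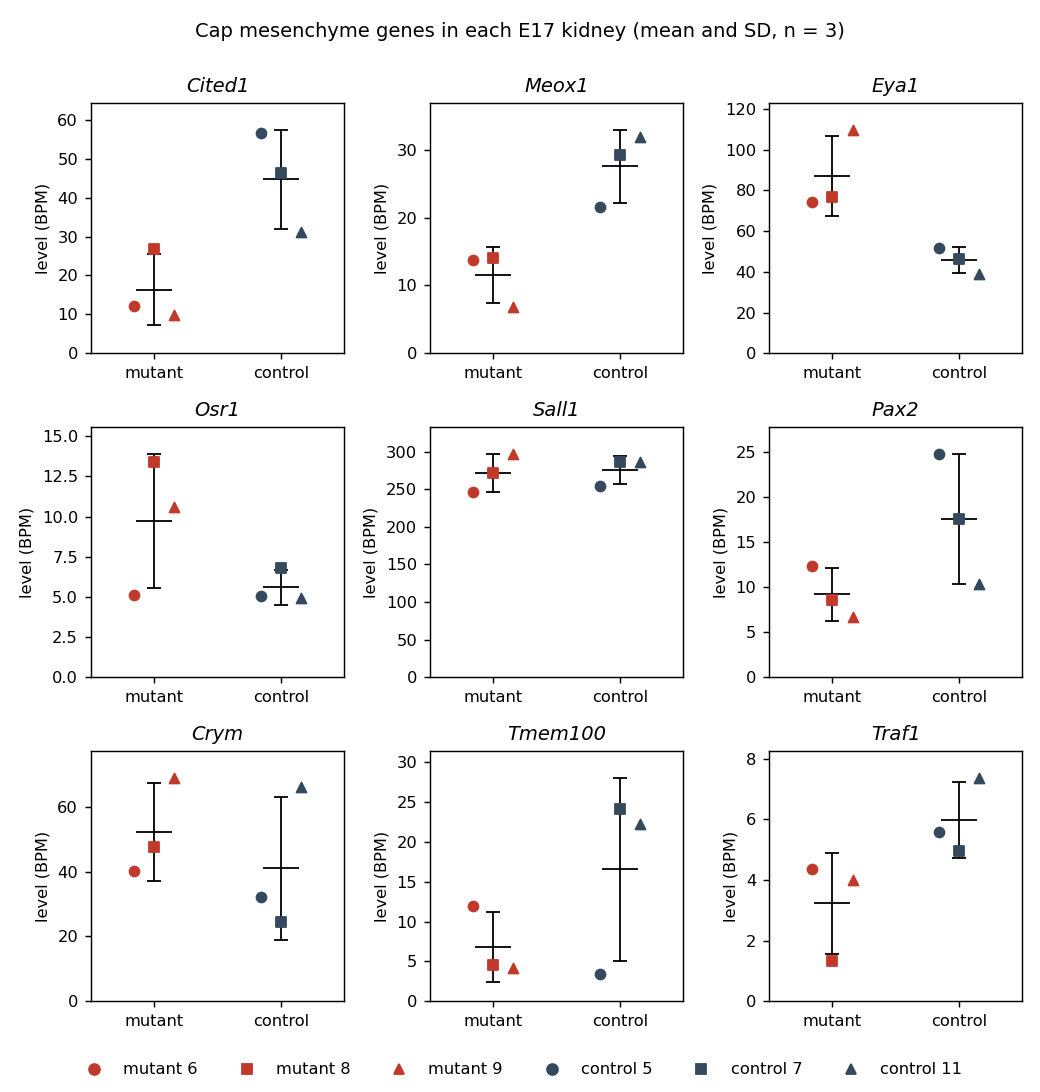
Level of each of the 9 genes (y axis, BPM, from 0) in the 3 mutant and the 3 control kidneys. Points are kidneys, with the group mean and SD as bars. Cited1, Meox1 and Traf1 lie lower and Eya1 higher in all mutant kidneys, and the other 5 genes overlap.

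Cited1, a transcriptional coactivator that binds CBP and p300, marks the self-renewing part of the cap mesenchyme. The gene lies on chromosome X from 102247381 to 102252181 (minus strand, mm10). It read 12.3, 26.9 and 9.96 BPM in mutants 6, 8 and 9, against 56.5, 46.4 and 31.1 BPM in controls 5, 7 and 11. The highest mutant kidney, number 8, stood below the lowest control kidney, number 11, and both groups varied widely. Means were 16.4 ± 9.18 BPM in mutant and 44.7 ± 12.8 BPM in control kidneys (SD, n = 3 each), so mutant kidneys held 36.7% of the control level. In limma Cited1 had a log2 fold change of -1.48 (SE 0.39), a 95% interval from -2.27 to -0.68, an unadjusted p of 5.97e-04 that ranked 24 among the 13977 genes and an adjusted p of 0.336. It lay between -1.88 without mutant 8 and -1.21 without mutant 9, and at -1.58 without both control 11 and mutant 6. Over the alternative runs the adjusted p of Cited1 in limma reached from 0.0682 to 0.925. The smallest was without both control 11 and mutant 6, and the largest was without mutant 6 alone.

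Sequence upstream of Cited1 is shown because it is the gene with the smallest p. RefSeq promoter windows (GRCm38.p6, 250 bases before to 50 after a start site) were matched for 4 of the 9 genes, with 10 windows in all. The 4 genes were Cited1, Pax2, Sall1 and Traf1. Capitals mark matches, on either strand, to the TATA box searched as TATAAA, to the GC box searched as GGGCGG and to the promoter element CCAAT. Cited1 has 3 of the 10 windows, and the one at start site 102250776 held 0 matches to these elements and is not shown. The other two are the windows of the start sites at 102252181, chrX:102252132-102252431, and at 102251843, chrX:102251794-102252093, both on the minus strand and printed in the direction of transcription.
Cited1 start site 102252181: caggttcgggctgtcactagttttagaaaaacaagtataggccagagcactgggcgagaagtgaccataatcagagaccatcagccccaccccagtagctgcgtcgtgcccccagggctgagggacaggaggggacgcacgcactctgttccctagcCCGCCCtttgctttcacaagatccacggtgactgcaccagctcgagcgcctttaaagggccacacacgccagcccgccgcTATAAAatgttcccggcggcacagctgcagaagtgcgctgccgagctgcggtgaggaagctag
Cited1 start site 102251843: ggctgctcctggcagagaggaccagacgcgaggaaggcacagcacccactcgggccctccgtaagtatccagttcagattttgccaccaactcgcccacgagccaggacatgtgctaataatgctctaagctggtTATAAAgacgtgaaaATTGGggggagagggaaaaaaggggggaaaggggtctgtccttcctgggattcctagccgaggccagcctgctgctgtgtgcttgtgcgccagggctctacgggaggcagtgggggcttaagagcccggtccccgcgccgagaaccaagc
The first window has TATAAA beginning 13 bases before the start site and a GC box 93 bases before it, and the second has TATAAA 115 bases and CCAAT on the other strand 100 bases before it. TATAAA was in 2 of the 10 windows and in 13.6% of the 32851 promoter windows in the table, CCAAT in 3 and in 37.4%, and GGGCGG in 5 and in 35.7%. The core TCAGGTT of the MEF3 element bound by Six2 was in 0 of the 10 windows and in 4.07% of all windows. The TCF/LEF element of Wnt signalling, searched as CTTTGAT and as CTTTGTT, was in 0 of the 10 and in 9.33% of all. The WT1 element, searched as GCGTGGGNG, was in 1 of the 10, a window of Sall1, and in 1.9% of all. These letters describe the windows and say nothing of what binds there.

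Meox1, a homeobox transcription factor best known from the somites and also a marker of the cap mesenchyme, differed in the same direction as Cited1. It lies on chromosome 11 from 101877510 to 101894374 (minus strand). Its level was 13.7, 14.0 and 6.76 BPM in mutants 6, 8 and 9, against 21.5, 29.2 and 31.9 BPM in controls 5, 7 and 11, without overlap. Mutant 9 was the lowest kidney for Meox1 and for Cited1. Means were 11.5 ± 4.11 BPM in mutant and 27.5 ± 5.39 BPM in control kidneys (SD, n = 3 each), 41.7% of the control level. This gave a log2 fold change of -1.24 (SE 0.43, 95% interval from -2.11 to -0.36), with an unadjusted p of 0.00699 and an adjusted p of 0.769 in limma.

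Eya1, a phosphatase and coactivator that works with Six2 and is required for the cap mesenchyme in the mouse, differed in the other direction. The gene spans chromosome 1 from 14168954 to 14310235 (minus strand). It read 74.4, 76.9 and 109.8 BPM in mutants 6, 8 and 9, against 51.7, 46.3 and 39.0 BPM in controls 5, 7 and 11. Each mutant kidney stood above each control kidney, and mutant 9 was the highest. Means were 87.0 ± 19.7 BPM in mutant and 45.7 ± 6.36 BPM in control kidneys (SD, n = 3 each). On the log2 scale the fold change was 0.90 (SE 0.27) and its 95% interval ran from 0.35 to 1.46, with an unadjusted p of 0.00221 and an adjusted p of 0.563 in limma. Eya1 also acts in skeletal muscle, and 6 muscle markers summed to 279 BPM in mutant 9, against 0.934 and 4.82 BPM in mutants 6 and 8 and 3.75 to 10.6 BPM in control kidneys. Without mutant 9 the log2 fold change of Eya1 was 0.72. The part of muscle in the Eya1 values was not tested. Without both control 11 and mutant 6 it was 0.90, and that of Meox1 was -1.27.

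The contrast between these genes does not depend on how libraries were scaled, since a ratio within a kidney cancels the library total. These pairs were chosen after the values had been seen, so the ratios are given with no test. Covered bases of Cited1 over those of Eya1 came to 0.165, 0.349 and 0.0907 in mutants 6, 8 and 9, against 1.09, 1.00 and 0.797 in controls 5, 7 and 11. The mean log2 ratio was -2.53 ± 0.97 in mutant and -0.07 ± 0.24 in control kidneys (SD, n = 3 each). For Meox1 over Eya1 it was -2.97 ± 0.91 in mutant and -0.74 ± 0.49 in control kidneys, again with no overlap. The lack of overlap in both ratios was fixed by the levels, as Cited1 and Meox1 were lower and Eya1 higher in each mutant kidney. Cited1 over Meox1, a pair that differed in the same direction, overlapped, at 0.45 ± 0.56 in mutant and 0.67 ± 0.71 in control kidneys.

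Six2, the transcription factor that keeps progenitors undifferentiated, lay on the side of Eya1. It read 22.0, 26.9 and 48.3 BPM in mutants 6, 8 and 9, against 19.8, 8.93 and 17.6 BPM in controls 5, 7 and 11 (log2 fold change 1.01, SE 0.42, limma adjusted p 0.854). Only mutant kidneys carry the Six2Cre transgene, so a higher level of the endogenous gene and reads from a transgene cannot be told apart. Eya1 over Six2 overlapped between the groups, at a mean log2 ratio of 1.49 ± 0.29 in mutant and 1.64 ± 0.65 in control kidneys. Cited1 over Six2 did not, at -1.04 ± 1.15 in mutant and 1.57 ± 0.78 in control kidneys (SD, n = 3 each). This too was fixed by the levels, as Cited1 was lower and Six2 higher in each mutant kidney.

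**Figure D2:**
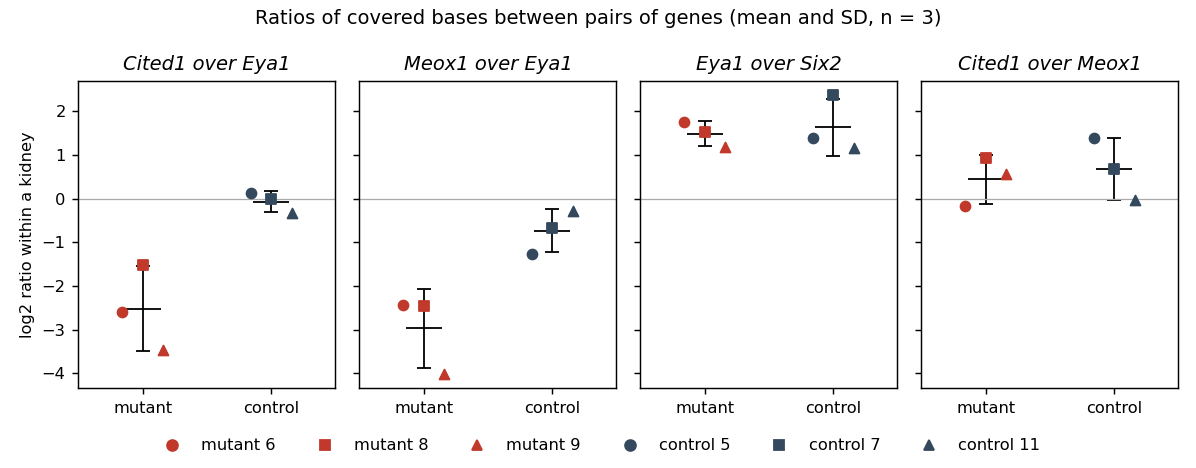
Log2 ratio of covered bases between 2 genes within a kidney (y axis) for 4 pairs, in mutant and control kidneys, with the mean and SD. Cited1 over Eya1 and Meox1 over Eya1 lie lower in all mutant kidneys, while Eya1 over Six2 and Cited1 over Meox1 overlap between the groups.

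The other transcription factors of the set did not separate the groups. Sall1, a zinc finger protein that binds NuRD and is required for kidney formation, was the most abundant member and the steadiest. Its locus is on chromosome 8, 89027235 to 89044162 (minus strand). Sall1 read 246, 272 and 297 BPM in mutants 6, 8 and 9, against 254, 286 and 286 BPM in controls 5, 7 and 11. Mutant and control kidneys differed by a log2 fold change of -0.02 (SE 0.19), with an interval from -0.41 to 0.37 and an adjusted p of 0.994 in limma. Its sign turned with the libraries kept, to 0.05 without mutant 6 and -0.09 without mutant 9. Its pooled SD within groups was 0.118 on the log2 scale, against a median of 0.230 for the 352 genes of like level (a mean log2 level within 0.25).

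Pax2, a paired-box factor of both the cap mesenchyme and the ureteric bud, had a lower mean in mutant kidneys, but the groups overlapped. It lies on chromosome 19 from 44756045 to 44837871 (plus strand). Its level was 12.4, 8.54 and 6.69 BPM in mutants 6, 8 and 9, against 24.9, 17.6 and 10.4 BPM in controls 5, 7 and 11. Control 11 stood among the mutant kidneys. Its log2 fold change was -0.83 (SE 0.49, limma adjusted p 0.887), and it was -1.36 without both control 11 and mutant 6 and -0.55 without control 5. The 8 ureteric bud markers, by contrast, summed to 648 to 706 BPM in mutant and 533 to 581 BPM in control kidneys. Of the 8, 7 lay above 0 in log2 fold change, beside 7354 of all 13977 genes tested. The groups did not overlap for 1 of the 8, beside 11.2% of all genes. This was Calb1, at 131 ± 25.0 BPM in mutant and 68.5 ± 3.39 BPM in control kidneys (SD, n = 3 each). The part of the ureteric bud markers in the Pax2 values was not tested.

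Osr1, a zinc finger factor of the earliest kidney mesoderm that acts with Six2 in the mouse, was low in all libraries. It is on chromosome 12 from 9570116 to 9581500. Mutants 8 and 9, at 13.4 and 10.6 BPM, stood above all control kidneys, which read 5.04, 6.82 and 4.90 BPM, but mutant 6 at 5.15 BPM lay within the control range. Its log2 fold change of 0.63 (SE 0.59, limma adjusted p 0.921) became 0.99 without mutant 6 and 0.37 without mutant 8.

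Among the markers with other roles, Traf1 was the one without overlap, and Crym and Tmem100 varied as much within groups as between them. Traf1, an adaptor of tumour necrosis factor receptors (chromosome 2, 34941750 to 34961772), had levels of 4.37, 1.31 and 3.996 BPM in mutants 6, 8 and 9, against 5.60, 4.95 and 7.38 BPM in controls 5, 7 and 11. It rested on 1231 to 9110 covered bases per library, the thinnest coverage of the 9 genes. The log2 fold change was -0.80 (SE 0.67, limma adjusted p 0.914) and -0.41 without mutant 8, the lowest kidney. The 5 macrophage and lymphoid markers in the table summed to 40.7 to 64.8 BPM in mutant and 39.4 to 59.5 BPM in control kidneys, with Cd3e listed at 0 throughout and Cd79a and Cd68 at 1.04 BPM or less. Nearly all of the sum came from a pair of genes that differed in opposite directions. Ptprc of all leukocytes averaged 23.6 ± 12.6 BPM in mutant and 11.9 ± 1.73 BPM in control kidneys. Csf1r of macrophages averaged 25.8 ± 1.97 BPM in mutant and 34.3 ± 9.44 BPM in control kidneys (SD, n = 3 each). Both were without overlap between the groups, beside 11.2% of all genes. The part of the macrophage and lymphoid markers in the Traf1 values was not tested.

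Crym, which encodes the thyroid hormone binding protein mu-crystallin (chromosome 7, 120186380 to 120202111), had levels of 40.1, 47.5 and 69.0 BPM in mutants 6, 8 and 9, against 32.3, 24.4 and 66.1 BPM in controls 5, 7 and 11. Control 11 stood beside mutant 9, far above the other controls. The log2 fold change was 0.43 (SE 0.34, limma adjusted p 0.909), but 0.83 without control 11, 1.00 without both control 11 and mutant 6 and 0.13 without control 7. Its pooled SD of 0.582 lay above that of 91.3% of genes of like level.

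Tmem100, a small membrane protein that depends on BMP signalling in endothelium (chromosome 11, 90030348 to 90036508), was the most variable of the set. It read 11.9, 4.51 and 4.14 BPM in mutants 6, 8 and 9, against 3.36, 24.2 and 22.3 BPM in controls 5, 7 and 11. Control 5 was the lowest of all 6 kidneys. The log2 fold change was -0.93 (SE 0.62, limma adjusted p 0.896), ranging from -1.76 without control 5 to -0.49 without control 7, and the pooled SD within groups was 1.14. The 8 endothelial markers summed to 1094 to 1190 BPM in mutant and 1073 to 1280 BPM in control kidneys, with control 5 at 1203 BPM. Their part in the Tmem100 values was not tested.

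**Figure D3:**
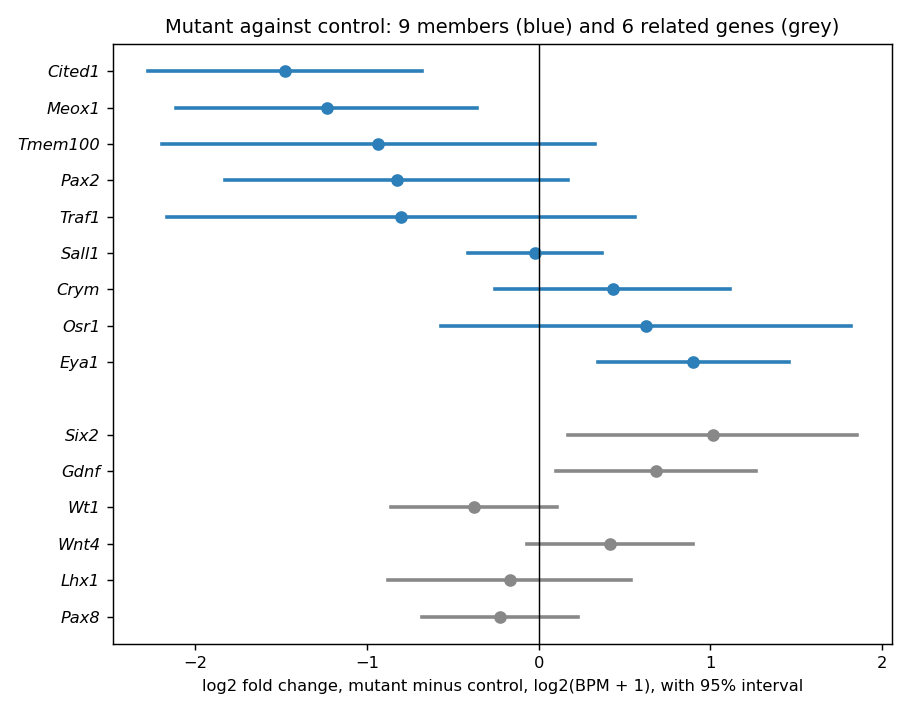
Log2 fold change of mutant over control kidneys (x axis, log2(BPM + 1) scale) with its 95% interval for the 9 genes in blue and for 6 related genes in grey. The intervals of Cited1, Meox1, Eya1, Six2 and Gdnf lie to one side of 0 before adjustment, and those of the other genes cross it.

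Levels of different genes were compared only per length, as BPM per kilobase of annotated exon. In control kidneys the order was Sall1 at 52.3 ± 3.53, Cited1 at 25.5 ± 7.29, Meox1 at 12.4 ± 2.42, Crym at 12.1 ± 6.53, Tmem100 at 9.39 ± 6.51, Eya1 at 5.85 ± 0.815, Pax2 at 3.26 ± 1.34, Osr1 at 2.70 ± 0.517 and Traf1 at 0.677 ± 0.143 (SD, n = 3). Cited1 thus had the mean next below Sall1 there, although its spread overlapped that of Crym. Meox1, Crym and Tmem100 did not differ beyond their spread, and Eya1 overlapped both Crym and Tmem100. Tmem100 also overlapped Pax2 and Osr1, which overlapped each other. In mutant kidneys Cited1 stood at 9.33 ± 5.23 per kilobase, below Sall1 (51.6 ± 4.83), Crym (15.4 ± 4.43) and Eya1 (11.1 ± 2.53). Its spread overlapped those of Crym, Eya1, Meox1, Osr1 and Tmem100, and Crym and Eya1 overlapped each other. Below Cited1 came Meox1 at 5.16 ± 1.84, Osr1 at 4.71 ± 2.03, Tmem100 at 3.88 ± 2.49, Pax2 at 1.70 ± 0.537 and Traf1 at 0.366 ± 0.189 per kilobase. Meox1, Osr1 and Tmem100 lay within their spread, and Tmem100 and Pax2 likewise (SD, n = 3). Exon length here is the union over annotated transcripts, 8.819 kilobases for Traf1, and which of them the kidneys used is not known.

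Other genes of the progenitor programme also lay on both sides of 0. Of 33 further cap mesenchyme genes 29 passed the filter, and 0 passed an adjusted p of 0.05 in limma in either direction. Their median log2 fold change was 0.04, with 18 above 0 and 11 below, and an unadjusted p below 0.05 was found for 3 that were higher and 1 that was lower in mutant kidneys, beside 2.9% and 2.7% of all genes. The groups did not overlap for 6 of the 29, beside 11.2% of all genes. Of these 6, Six2, Gdnf and Lypd1 were higher and Uncx, Wt1 and Phf19 lower in mutant kidneys, Phf19 being named after its values had been seen. Gdnf, the ligand by which the cap mesenchyme drives ureteric branching, averaged 66.9 ± 5.67 BPM in mutant and 41.8 ± 8.61 BPM in control kidneys (log2 fold change 0.68, limma adjusted p 0.854). Uncx, a homeobox factor, averaged 16.8 ± 2.68 BPM in mutant and 31.5 ± 8.13 BPM in control kidneys (log2 fold change -0.85, limma adjusted p 0.863). The adhesion gene Cdh11 had a log2 fold change of 0.40, the chromatin protein gene Hmga2 0.67, Lypd1 1.38 and the zinc finger factor gene Wt1 -0.37. Hoxc11, Lin28b and Dapl1 were among those too low to test.

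Genes of the step into the nephron lay on both sides of 0 as well. Of 21 commitment genes 20 were tested, 0 passed in limma, and 8 lay above 0 and 12 below, with a median log2 fold change of -0.07. The groups did not overlap for 5 of the 20, beside 11.2% of all genes. Of these 5, Wnt4 was higher in mutant kidneys and Lfng, Hey1, Pax8 and Ccnd1 were lower. The cyclin gene Ccnd1, named after its values had been seen, stood at 85.5% of the control level. Wnt4, the signal of the pretubular aggregate, averaged 115 ± 18.9 BPM in mutant and 85.2 ± 6.54 BPM in control kidneys (log2 fold change 0.41, limma adjusted p 0.887). Lfng, which modifies Notch receptors, averaged 32.1 ± 3.68 BPM in mutant and 54.4 ± 12.1 BPM in control kidneys (log2 fold change -0.73, limma adjusted p 0.854). The Notch target Hey1 was at -0.46, the Wnt effector Lef1 at 0.86, Fgf8 at 0.96 and Greb1 at -0.45. Lhx1 and Pax8, transcription factors of the forming vesicle, stood at -0.17 and -0.23, and Hes5 was too low to test. An unadjusted p below 0.05 was found for 1 of the 20, Lfng, beside 5.6% of all genes.

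The genes whose profiles over the 6 libraries were closest to each member were found by the root mean square difference of centred log2 levels. Closest to Cited1 were Tmem72 (0.155) and Snap91 (0.169), and closest to Meox1 were Dkk2 (0.202) and Cys1 (0.204). Eya1 was closest to Calb1 (0.0864) and Mfsd7b (0.123), and Osr1 to Churc1 (0.118) and Shank1 (0.140). For Sall1 these were Cops4 (0.0343) and Zcchc14 (0.0442), for Pax2 Nanos1 (0.116) and Dnase1l2 (0.148), and for Crym Nfil3 (0.132) and Cldn3 (0.146). Tmem100 had the most distant neighbours, Rundc3a (0.260) and Nmb (0.322), and Traf1 was closest to Tbcd (0.112) and Adora2a (0.164). Within the set, Cited1 and Meox1 were each other's nearest member at 0.517, as were Eya1 and Osr1 at 0.406.

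Summed markers of the remaining cell types overlapped between the groups. The 8 stroma markers summed to 3105 to 3744 BPM in mutant and 2648 to 3132 BPM in control kidneys. Of the 8, 2 were higher in each mutant kidney without overlap, beside 6.1% of all genes. Fat4, an atypical cadherin, averaged 951 ± 132 BPM in mutant and 589 ± 184 BPM in control kidneys (log2 fold change 0.73, limma adjusted p 0.336). Pdgfra, a receptor of platelet-derived growth factor, averaged 408 ± 44.2 BPM in mutant and 275 ± 71.5 BPM in control kidneys (log2 fold change 0.60, limma adjusted p 0.730). The part of stroma in the values of the 9 genes was not tested. Neural markers summed to 7.61 to 20.8 BPM in mutant and 9.06 to 13.9 BPM in control kidneys, and adrenal markers to 0 to 1.30 BPM in mutant and 0 to 3.84 BPM in control kidneys, with Cyp11b1 and Cyp21a1 listed at 0. The 4 erythroid genes found summed to 1038 to 1927 BPM in mutant and 1061 to 1470 BPM in control kidneys.

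Unadjusted p-values in the authors' deposited table were below 0.05 for 3 of the 9 genes, against 3.27% of all 23219 symbols. Those symbols include many without coverage, as 14467 to 16646 had coverage in a given library. The share is therefore not like the 5.6% found in limma among the 13977 genes that passed the filter. The authors' deposited table gives a mutant over control ratio of 0.367 for Cited1 (p = 0.0357), 0.417 for Meox1 (p = 0.0148) and 1.91 for Eya1 (p = 0.0259). Adjusted by Benjamini-Hochberg over all symbols, the p-values of the authors' deposited table came to 0.920 for each of these 3 genes.

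**Figure D4:**
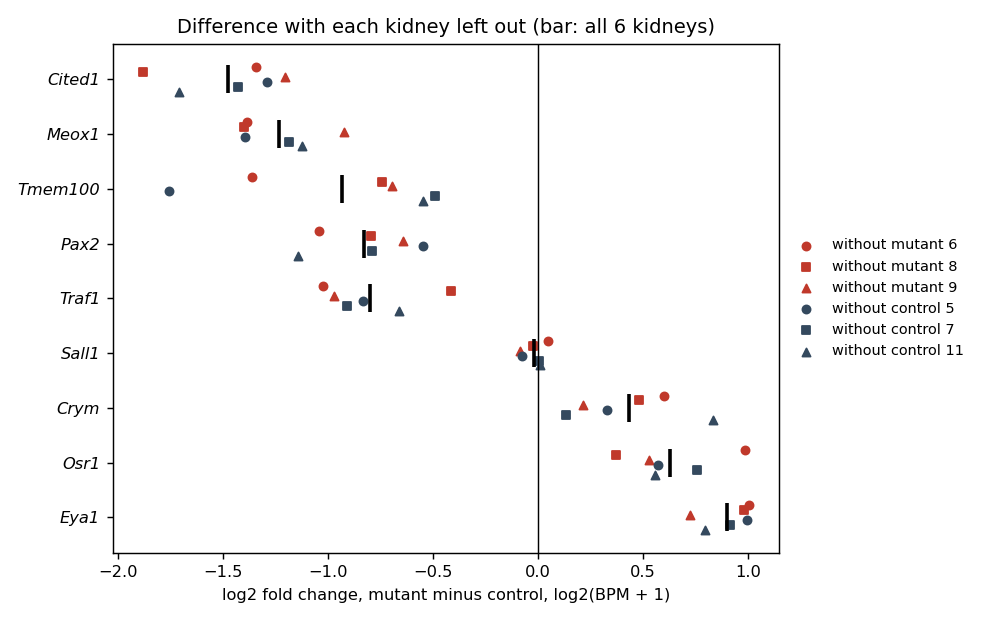
Log2 fold change of each of the 9 genes (x axis) with all 6 kidneys, as a black bar, and with each kidney left out in turn, as points. Cited1 and Meox1 stay below -0.9 and Eya1 stays above 0.7, while Sall1 lies on both sides of 0 and Tmem100 and Crym spread widely.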

How the data were processed

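Per the labels' protocols, total RNA from kidneys was depleted of ribosomal RNA and made into barcoded libraries with Ion Total RNA-seq kits. The build mm10 and bedtools are named without role or version, per the submitters' processing notes, while aligner and annotation were not given in the sources used here. Each deposited coverage value (signal) is the summed base coverage of a gene plus 1, times a library factor. This was read from the values: each divided by its column's smallest was whole (tolerance 0.001) for 100% of values. The deposited ratio is the authors' mutant mean over control mean, and the deposited p-value is the authors' and unadjusted. The strand setting of the coverage is not given, but no annotated gene shares exon bases with the 9 genes.

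Here the factor was removed and coverage scaled to 1000000 per library (BPM), so 1 BPM is 794 to 1235 covered bases. A gene was tested if 3 or more libraries had at least 1 BPM, and the test used log2(BPM + 1), which understates changes of low genes. Limma 3.58.1 (R 4.3.3) compared mutant with control, two-sided, using its trend and robust options without covariates, and p-values were adjusted by Benjamini-Hochberg over all genes (threshold 0.05). The fit was also run on simulated data with known changes. Their noise was independent between libraries, so this check does not cover libraries that stand apart. Mta2 was also compared by an exact permutation test.

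The members and lists were chosen with earlier results of these data known. Named genes are the 9 members, Mta2, the 6 smallest p in each related list, Six2, Gdnf, Wnt4, Wt1, Lhx1 and Pax8, the 2 nearest profiles of each member, and markers. Not every gene of the lists is reported here by name. Like level means a mean log2 level within 0.25. Exon lengths and coordinates are from GENCODE M21 (21627 of 23219 symbols matched). Alternatives covered scaling, filter, pseudocount, trend, sample weights and left-out libraries.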

Additional observations from a re-analysis of the deposited data

How the results depend on the processing

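The count of genes past the threshold, 0 in limma, was 1 with quantile normalization, 1 without the trend, 4 with sample weights, 0 to 8 with each library left out and 22 without both control 11 and mutant 6. It stayed at 0 with median ratio scaling, with structural RNA and erythroid genes left out of the totals, without a filter, with a minimum of 5 BPM and with a pseudocount of 0.1. The 9 members, the cap mesenchyme list and the commitment list gave 0 calls under each of these. Sall1, near 0 throughout, changed sign, to 0.0086 with sample weights, to 0.076 without both libraries and to between -0.088 and 0.047 with each library left out. The other 8 members and Mta2 kept their direction in every alternative run. Traf1 fell below the minimum of 5 BPM and has no value there. Scaling moved the median of all genes by less than 0.1. No paired analysis was possible because the label numbers are not shared between mutant and control kidneys. With 3 kidneys a group and an unknown number of reads, genes with low levels are uncertain, and Traf1, Tmem100 and Osr1 had the largest standard errors of the 9 (0.67, 0.62 and 0.59).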
